A study of Homo sapiens with 4 samples.

Results

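The genes described here are 30 genes that the literature names as targets of miR-27, a microRNA family made up of miR-27a and miR-27b. The lipid nuclear receptors, which are also named as targets, were kept out of the list. Members were taken by gene symbol from the array annotation, and 28 of the 30 had a probe set, 1 each, among 17687 genes measured. PINK1, a mitochondrial kinase, and MAP2K4, a kinase of the JNK pathway, had no probe set under their names and were not analysed here. The evidence behind each target was not reviewed, and the sites for miR-27 in the transcripts were not analysed here.

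THP-1, a human monocytic leukaemia line, was made macrophage-like with 100 ng/ml phorbol myristate acetate (PMA) for 2 days, and all 4 groups share that treatment. A synthetic microRNA mimic was then given with lipofectamine RNAiMAX for 24 h. The groups were the miR-27b-3p mimic, the mimic labelled let-7d-5p, the miR-151a-5p mimic and a negative control mimic, with 1 Clariom S array each. Sample titles give let-7d-5p whereas the treatment text gives let-7a-5p. The study itself names mimics of let-7a-5p, let-7d-3p and let-7e-5p, and none of let-7d-5p. Which let-7 mimic was used thus cannot be told from the labels, and the array keeps the name in its title. There were no replicates. Every difference below is therefore between single arrays, without a p-value and without a replicate error, and the control array is shared by all comparisons with it.

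The median log2 signal lay between 6.89 and 6.93 on the 4 arrays, and between 11585 and 11673 genes were above a background floor of 5.34, the 95th percentile of 348 olfactory receptor genes. Of the members, 23 were above the floor on all 4 arrays and 27 on at least 1. The labels also call the line lymphocyte-like. Of 10 macrophage markers, 9 were above the floor on every array, MRC1 being the exception, and their summed linear signal was 267772 on the miR-27b-3p array, 267850 on the let-7d-5p array, 267234 on the miR-151a-5p array and 263012 on the control array. Of 6 T and NK cell markers 1, NKG7, was above the floor on every array (summed signal 342 to 379), and CD3D, CD2, CD8A and KLRD1 were below it on all 4. CD3E was above the floor with let-7d-5p (5.63) and with miR-151a-5p (5.72), and below it with miR-27b-3p (5.29) and with the control. Among B cell markers 3 of 4 measured were above it on every array, CD79A, CD79B and PAX5 (510 to 579), and MS4A1 was below it. Epithelial markers gave 2 of 5, KRT8 and KRT19 (590 to 843), with EPCAM, KRT18 and CDH1 below the floor. Fibroblast and endothelial markers gave 2 of 5 measured, DCN and PECAM1 (15969 to 18077), nearly all of the sum from PECAM1, which macrophages also express. COL1A1 was above the floor with let-7d-5p and with miR-27b-3p only, PDGFRB on every array but that of miR-151a-5p, and CDH5 on none.

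A microRNA guides an Argonaute protein to messenger RNAs, mostly through pairing of its seed, bases 2 to 8 from its 5′ end, with sites in the 3′ untranslated region. Bound messenger RNAs are translated less and are often degraded, so that many targets lose messenger RNA when the microRNA is in excess, while others lose protein alone, which an array does not show. The miR-27 family is known for acting in adipocyte differentiation, lipid metabolism and myeloid and vascular cells. Its reported targets cover growth factor signalling, Wnt, BMP and TGF-β signalling, transcription factors, the cell cycle and metabolism.

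The sequences below are shown because the seed defines the family to which these genes are assigned. They are the mature sequences in RefSeq (GRCh38.p14), 5′ to 3′, with the seed in capitals. The mimics themselves were not sequenced.
hsa-miR-27b-3p: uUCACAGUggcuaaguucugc
hsa-miR-27a-3p: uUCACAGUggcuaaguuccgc
hsa-let-7d-5p: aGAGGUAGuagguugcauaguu
hsa-let-7a-5p: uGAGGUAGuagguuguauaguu
The miR-27b-3p sequence lies at chr9:95085505-95085525 on the plus strand and that of miR-27a-3p at chr19:13836447-13836467 on the minus strand. They share the seed and all 21 positions but U19C, counted from the 5′ end with the base of miR-27b-3p first. Of 2370 mature human microRNAs in the table, 3 carried this seed, these 2 and miR-9985. The let-7d-5p sequence lies at chr9:94178841-94178862 on the plus strand. Set against let-7d-5p, let-7a-5p differs at A1U and C16U and has the same seed, which is not that of miR-27.

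On the miR-27b-3p array, 20 of the 28 measured genes were lower than on the control array and 8 were higher. Of all genes, 48.4% were lower, against 71.4% of the members. At least 1.5-fold lower (0.58 on the log2 scale) were 6 members, or 21.4%: the cyclin CCNG1, the acyltransferase GPAM, the cytochrome CYP1B1, the repressor ZBTB10, the kinase HIPK2 and the calcium-binding protein GCA. The background was 4.70% of all genes, and 4.72% of the 11911 genes above the floor on the miR-27b-3p or the control array. At least 1.5-fold higher was 1 member, FOXO1, or 3.57%, against 5.07% of all genes. No member differed by 2-fold, a size that 1.11% of all genes passed in either direction. The median difference of the members was -0.21, against 0.01 over all genes. Less RNA of a gene per cell and fewer cells that make it cannot be told apart in such bulk samples.

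The same genes were then read on the other mimic arrays. On the let-7d-5p array 0 members were at least 1.5-fold lower than on the control array, against 3.56% of all genes, and 0 were at least 1.5-fold higher, against 4.42%. The miR-151a-5p array had 1 member at least 1.5-fold lower, APC, which is 3.57% of the members and 3.57% of all genes. It also had 1 at least 1.5-fold higher, again FOXO1, against 5.29% of all genes. Lower than the control by any size were 10 members with let-7d-5p (35.7%, against 49.3% of all genes) and 14 with miR-151a-5p (50%, against 51.0%). Higher were 18 with let-7d-5p (64.3%, against 49.2%) and 14 with miR-151a-5p (50%, against 47.3%). Median differences of the members were 0.04 for let-7d-5p and 0.01 for miR-151a-5p, beside 0.00 and -0.01 over all genes. At 0.30 or more below the control lay 35.7% of the members against 16.5% of all genes with miR-27b-3p, 7.1% against 15.4% with let-7d-5p, and 10.7% against 16.2% with miR-151a-5p.

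**Figure D1:**
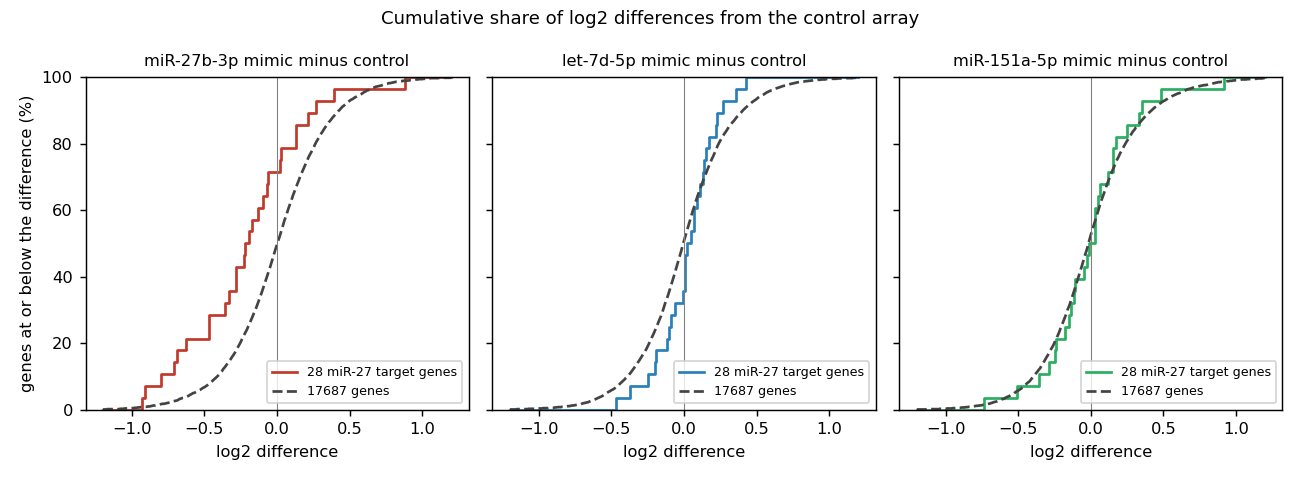
Cumulative share (%) of genes at or below each log2 difference from the control array, for the 28 measured miR-27 target genes (solid steps) and all 17687 genes (dashed), with 1 panel per mimic. The solid line lies left of the dashed line over most of the miR-27b-3p panel, and not in the same way in the panels of the other mimics. With miR-27b-3p, 71.4% of the members and 49.7% of all genes are at or below 0. The shares are 35.7% and 50.8% with let-7d-5p, where the solid line lies right of the dashed line below 0, and 50.0% and 52.7% with miR-151a-5p.

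A comparison that leaves out the control array set miR-27b-3p against the mean of the other mimics, let-7d-5p with miR-151a-5p. Here 5 members (17.9%) were at least 1.5-fold lower, against 4.29% of all genes, and 0 were at least 1.5-fold higher, against 3.49%. The 5 were those already given without GCA. The median of the members was -0.17 on this scale, against 0.01 over all genes. FBXW7 came next, with a difference of -0.58 that fell just short of 1.5-fold.

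The miR-27b-3p array was the lowest of the 4 arrays for 16 members (57.1%), against 25.4% of all genes, and the highest for 4 (14.3%), against 27.6%. For 11 members (39.3%) it lay below the lowest of the other 3 arrays by more than those 3 spanned, against 7.08% of all genes. Those 11 were CCNG1, CYP1B1, FBXW7, GAB1, GPAM, HIPK2, KITLG, NFE2L2, PDPK1, SMAD5 and ZBTB10. The same counts on the other arrays were smaller. They are not a separate comparison, because a gene can be lowest on only 1 array. With 16 of the 28 lowest on the miR-27b-3p array, the other arrays could only share the rest. The let-7d-5p array was lowest for 3 members (22.4% of all genes), and for 0 by more than the span of the rest (5.67%). With miR-151a-5p, 5 members were lowest (27.0% of all genes), GRB2 and NOTCH1 by more than that span (7.56%). On the control array 4 were lowest (22.7% of all genes), EGFR and SPRY2 by more than that span (5.89%).

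**Figure D2:**
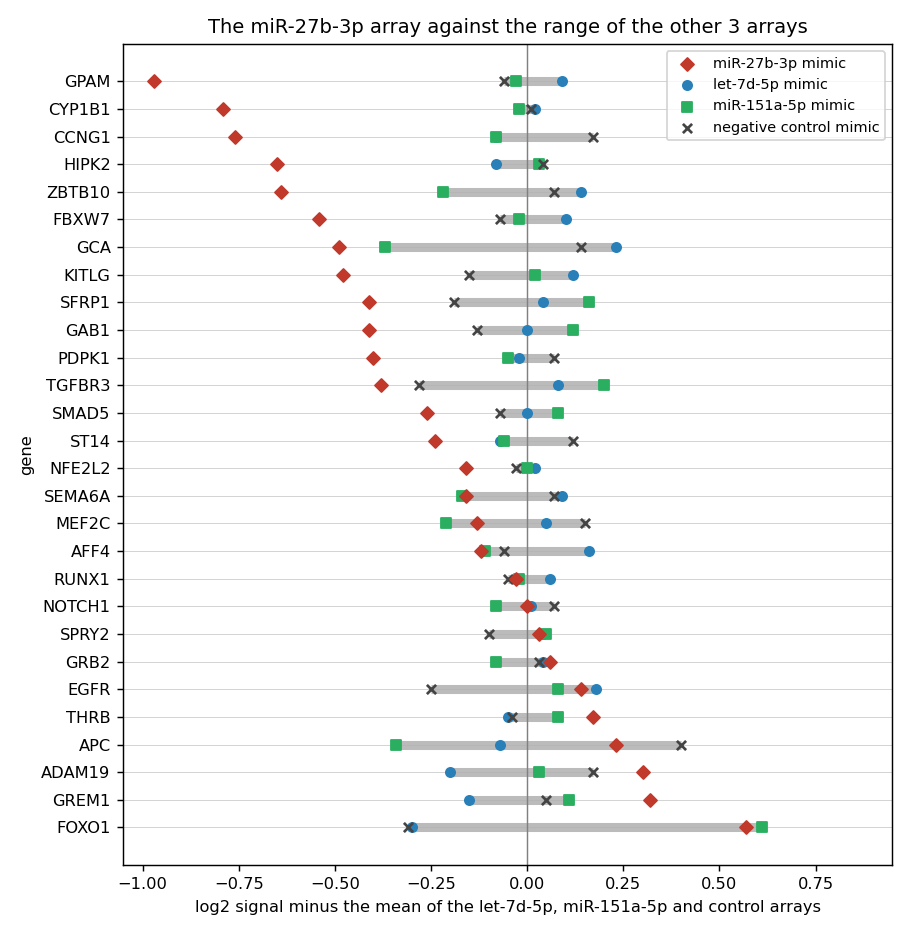
Log2 signal of each of the 28 genes on each array, given as the distance from the mean of the let-7d-5p, miR-151a-5p and control arrays, with the grey bar spanning those 3 arrays. The miR-27b-3p point (diamond) lies left of the bar for 16 genes and right of it for 4. For 11 of the 16 this point is separated from the bar by more than the bar is long, with the widest gaps for GPAM, CYP1B1, CCNG1 and HIPK2.

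The genes of the cell cycle and of protein turnover were both lower. CCNG1 encodes cyclin G1, an atypical cyclin induced by p53. Its log2 signal was 12.25 on the miR-27b-3p array, against 12.93 on the let-7d-5p array, 12.93 on the miR-151a-5p array and 13.18 on the control array. It was thus 1.91-fold lower than on the control array (difference -0.93), the lowest difference among the members, and 0.73% of the genes above the floor were as low or lower in that comparison. The other mimic arrays were also below the control, each by 0.25, and miR-27b-3p lay a further 0.68 below them. FBXW7 is the subunit of an SCF ubiquitin ligase that recognises cyclin E, MYC and other proteins for degradation. It read 8.20 with miR-27b-3p, against 8.84 with let-7d-5p, 8.72 with miR-151a-5p and 8.67 with the control. The difference from the control was -0.47, or 1.39-fold, and the other 3 arrays spanned 0.17.

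The metabolic genes with a probe set showed the same order of size. GPAM encodes the mitochondrial glycerol-3-phosphate acyltransferase, which starts the synthesis of triacylglycerol and phospholipid. It had a log2 signal of 5.56 on the miR-27b-3p array, against 6.62 on the let-7d-5p array, 6.50 on the miR-151a-5p array and 6.47 on the control array. The 3 other arrays spanned 0.15 and miR-27b-3p lay 0.91 below the lowest of them, which is 1.88-fold below the control, with 0.84% of genes above the floor as low or lower. On the miR-27b-3p array GPAM was close to the floor of 5.34. CYP1B1 is a cytochrome P450 that oxidises oestradiol and polycyclic hydrocarbons. Its log2 signals were 11.35 with miR-27b-3p, against 12.16, 12.12 and 12.15 with let-7d-5p, miR-151a-5p and the control. Those 3 arrays differed by 0.04 at most, and miR-27b-3p was 1.74-fold below the control (-0.80; 1.62% of genes above the floor as low or lower).

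Transcription factors and cofactors were the largest group, with 9 genes, and they divided. Their median difference on the miR-27b-3p array was -0.07, with 6 lower (66.7%, against 48.4% of all genes). The 3 higher (50.3% of all genes) include THRB, which was below the floor on all 4 arrays. ZBTB10, a zinc finger protein that represses SP transcription factor genes, was at 7.24 with miR-27b-3p, against 8.02 with let-7d-5p, 7.66 with miR-151a-5p and 7.95 with the control. The difference from the control was -0.71 (1.64-fold lower), and the gap of 0.42 to the miR-151a-5p array was only slightly larger than the 0.36 spanned by the other 3. HIPK2, a nuclear kinase that phosphorylates p53 and other regulators, was at 13.10 with miR-27b-3p, against 13.67, 13.78 and 13.79 with let-7d-5p, miR-151a-5p and the control. It was 1.61-fold lower than the control (-0.69), and the 3 other arrays spanned 0.12.

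NFE2L2, also called NRF2, switches on antioxidant genes. The gene had a small difference in the same direction: 13.04 with miR-27b-3p, against 13.22, 13.20 and 13.17 with let-7d-5p, miR-151a-5p and the control. All values lay within 0.18 of each other.

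The remaining transcription factors were not set apart by miR-27b-3p. MEF2C, a factor of myeloid and muscle cells, read 15.39 with miR-27b-3p, against 15.57, 15.31 and 15.67 with let-7d-5p, miR-151a-5p and the control, and miR-151a-5p was lowest. NOTCH1, a receptor whose cleaved part acts in the nucleus, was between 10.43 and 10.58 on all 4 arrays, and RUNX1, a haematopoietic factor, between 13.71 and 13.82. AFF4, a scaffold of the super elongation complex, was at 12.19 with miR-27b-3p, against 12.47, 12.20 and 12.25 with let-7d-5p, miR-151a-5p and the control. It was the lowest there by 0.01, which is the last digit deposited. THRB, the thyroid hormone receptor β, was below the floor on all 4 arrays (3.77 to 3.99).

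FOXO1 went the other way. This forkhead factor, held out of the nucleus by insulin signalling, had log2 signals of 6.14 on the miR-27b-3p array, against 5.27 on the let-7d-5p array, 6.18 on the miR-151a-5p array and 5.26 on the control array. It was 1.84-fold higher with miR-27b-3p than with the control (0.88), and 0.831% of genes above the floor were as high or higher. The miR-151a-5p array was higher by 0.92, so these arrays were 0.04 apart, and the control and let-7d-5p arrays were below the floor.

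**Figure D3:**
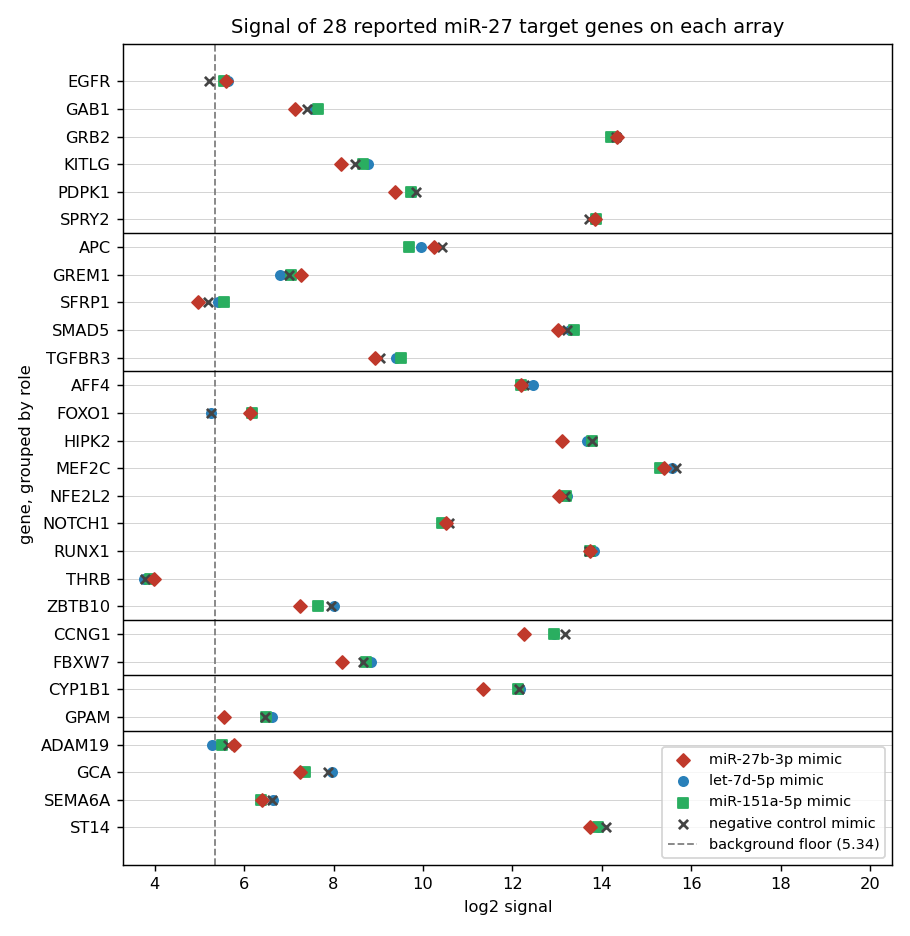
Log2 signal of the 28 measured genes on each of the 4 arrays, with genes grouped by role (from the top: growth factor and kinase signalling, Wnt, BMP and TGF-β signalling, transcription factors and cofactors, cell cycle and protein turnover, metabolism, and proteases, guidance and calcium binding) and the floor of 5.34 dashed. THRB lies below the floor on all 4 arrays, EGFR, SFRP1, ADAM19, GPAM and FOXO1 have points close to it, and signals of different genes should not be set against each other because each probe set has its own response.

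In growth factor and kinase signalling, 6 of 7 genes were measured and their median difference with miR-27b-3p was -0.12. Of these, 3 were lower (48.4% of all genes) and 3 higher (50.3%). KITLG, the ligand of the receptor KIT, was at 8.16 with miR-27b-3p, against 8.76, 8.66 and 8.49 with let-7d-5p, miR-151a-5p and the control. Its difference from the control was -0.33, and the 3 other arrays spanned 0.27. EGFR, the receptor of epidermal growth factor, was not lower. The log2 signal was 5.60 with miR-27b-3p, against 5.64, 5.54 and 5.21 with let-7d-5p, miR-151a-5p and the control, so that all 3 mimics were above the control, which was below the floor.

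The adaptors behind such receptors differed from each other. GAB1, a docking protein, was at 7.13 with miR-27b-3p, against 7.54, 7.66 and 7.41 with let-7d-5p, miR-151a-5p and the control, a gap of 0.28 from the lowest beside a span of 0.25. GRB2, which couples receptors to RAS, was between 14.21 and 14.35 on all arrays and highest with miR-27b-3p. PDPK1, the kinase that activates AKT, was at 9.38 with miR-27b-3p, against 9.76, 9.73 and 9.85 with let-7d-5p, miR-151a-5p and the control, or 1.39-fold lower than the control (-0.47). SPRY2, a feedback inhibitor of receptor tyrosine kinases, was at 13.84 with miR-27b-3p, 13.85 with let-7d-5p and 13.86 with miR-151a-5p, against 13.71 with the control. The mimic arrays could not be told apart for SPRY2.

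The Wnt, BMP and TGF-β group held 5 genes with a median difference of -0.17 on the miR-27b-3p array. Of these, 4 were lower (80%, against 48.4% of all genes), none by 1.5-fold. SMAD5, which carries BMP signals to the nucleus, was at 13.03 with miR-27b-3p, against 13.29, 13.37 and 13.22 with let-7d-5p, miR-151a-5p and the control. TGFBR3, the co-receptor betaglycan, was at 8.93 with miR-27b-3p, against 9.39, 9.51 and 9.03 with let-7d-5p, miR-151a-5p and the control. Its difference depended on the array it was set against: -0.10 from the control and -0.52 from the mean of the other mimics.

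For the secreted antagonists of these pathways no common direction was seen. SFRP1, which binds Wnt proteins, was at 4.97 with miR-27b-3p, against 5.42, 5.54 and 5.19 with let-7d-5p, miR-151a-5p and the control, and only the values with let-7d-5p and with miR-151a-5p were above the floor. GREM1, a BMP antagonist, was highest with miR-27b-3p at 7.27, against 6.80 with let-7d-5p, 7.06 with miR-151a-5p and a control value that lay 0.27 below miR-27b-3p. APC, a scaffold of the complex that degrades β-catenin, was at 10.25 with miR-27b-3p, against 9.95, 9.68 and 10.42 with let-7d-5p, miR-151a-5p and the control. Its lowest value was thus on the miR-151a-5p array (-0.74 from the control), and miR-27b-3p was the closest of the mimics to the control.

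Among the remaining 4 genes the median difference with miR-27b-3p was -0.29, beside -0.21 with miR-151a-5p and -0.09 with let-7d-5p. GCA encodes grancalcin, a calcium-binding protein of neutrophils and macrophages. It was at 7.24 with miR-27b-3p, against 7.96 with let-7d-5p, 7.36 with miR-151a-5p and 7.87 with the control. Although it was 1.55-fold lower than the control (-0.63), the miR-151a-5p array was lower too (-0.51), and the gap between these mimics was 0.12. ST14, the membrane serine protease matriptase, was at 13.74 with miR-27b-3p, against 13.91, 13.92 and 14.10 with let-7d-5p, miR-151a-5p and the control. SEMA6A, a transmembrane guidance protein, was at 6.39 with miR-27b-3p, against 6.64, 6.38 and 6.62 with let-7d-5p, miR-151a-5p and the control, so that miR-27b-3p and miR-151a-5p were 0.01 apart. ADAM19, a membrane metalloprotease, was near the floor, at 5.78 with miR-27b-3p, against 5.28, 5.51 and 5.65 with let-7d-5p, miR-151a-5p and the control.

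Relatives of the members, genes of the same families that are not on the list, were read in the same way. Of 48 listed relatives 44 were measured, 34 of them above the floor on at least 1 array and 31 on all 4. Values below the floor are limited by background and can hardly show a lower signal. On the miR-27b-3p array 0 of them were at least 1.5-fold lower than on the control array, against 4.70% of all genes, and 3 were at least 1.5-fold higher, against 5.07%. The 3, named after their values were seen, were AFF2, ADAM8 and PDCD6. The median difference of the relatives was -0.02, and the miR-27b-3p array was the lowest of the 4 for 8 of them (18.2%, against 25.4% of all genes) and the highest for 14 (27.6% of all genes). CCNG2, cyclin G2, was at 10.38 with miR-27b-3p, against 10.09, 9.64 and 9.83 with let-7d-5p, miR-151a-5p and the control (0.55 above the control), whereas CCNG1 was lower there.

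GPAT3 and GPAT4 are the acyltransferases that start glycerolipid synthesis in the endoplasmic reticulum. GPAT3 was at 8.83 with miR-27b-3p, against 8.37, 8.99 and 9.39 with let-7d-5p, miR-151a-5p and the control, so that all mimics were lower than the control and let-7d-5p was the lowest. Its difference with miR-27b-3p, -0.56, had the same direction as that of GPAM, fell just short of 1.5-fold and was the lowest among the 44 relatives. GPAT4 was between 12.46 and 12.57. Of the kinases related to HIPK2, HIPK1 differed from the control by 0.08 and HIPK3 by -0.02. For ZBTB10, the relatives ZBTB11 and ZBTB2 had differences of 0.03 and -0.23. CYP1A1 and CYP1A2 were below the floor on all 4 arrays. SRI, which like GCA is a penta-EF-hand protein, had a difference of -0.17, and PDCD6, another of that family, was higher with all mimics (0.85 with miR-27b-3p, 0.79 with let-7d-5p and 0.43 with miR-151a-5p).

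**Figure D4:**
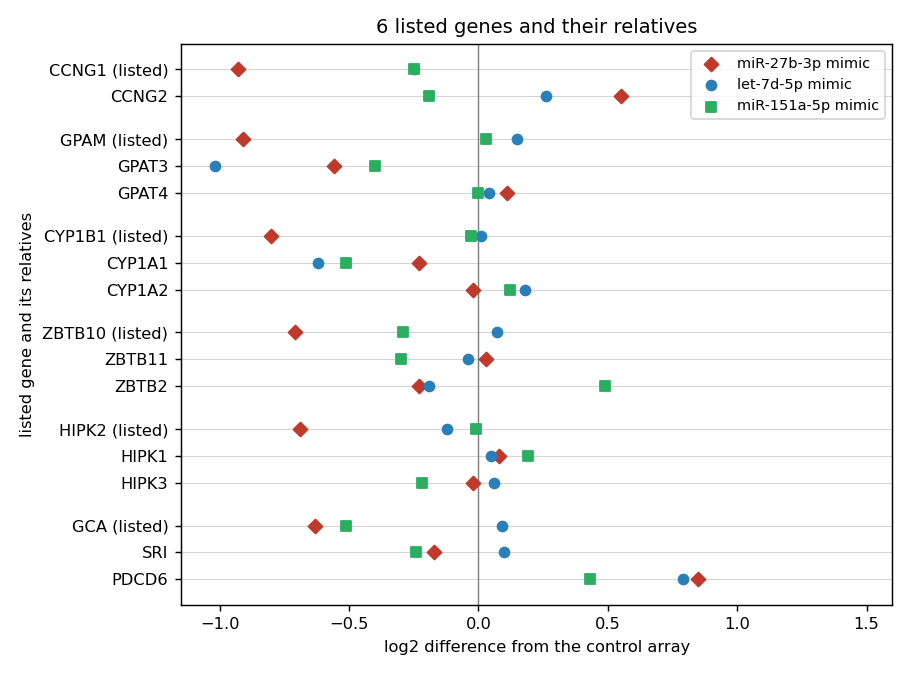
Log2 difference from the control array for the 6 members at least 1.5-fold lower with miR-27b-3p (marked listed) and for their relatives, with 1 symbol per mimic. The 6 listed genes were chosen for this difference, so their diamonds lie below -0.58 by construction. Among the relatives shown, the miR-27b-3p differences run from -0.56 (GPAT3) to 0.85 (PDCD6), and for CCNG1 the symbols of let-7d-5p and of miR-151a-5p coincide at -0.25.

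Genes downstream of some members were listed to show the pathways around them. Of 12 genes switched on by NFE2L2, 11 were measured, 9 were lower (81.8%, against 48.4% of all genes) and 2 higher with miR-27b-3p than with the control, with a median of -0.15. The miR-27b-3p array was the lowest of the 4 for 7 of the 11 (63.6%, against 25.4% of all genes). The same list had medians of 0.10 with let-7d-5p and -0.03 with miR-151a-5p. HMOX1, haem oxygenase 1, was at 11.40 with miR-27b-3p, against 12.35, 11.47 and 12.07 with let-7d-5p, miR-151a-5p and the control. It was the 1 gene of these 11 at least 1.5-fold lower than the control, against 4.70% of all genes. The miR-151a-5p array was as low for HMOX1 within 0.07. GCLC, a subunit of the enzyme that limits glutathione synthesis, was at 13.72 with miR-27b-3p, against 13.18, 13.01 and 13.14 with let-7d-5p, miR-151a-5p and the control.

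CCNG1 is itself a p53 target and HIPK2 a p53 kinase. Of 13 other p53 targets listed, 12 were measured, 8 were higher (50.3% of all genes) and 4 lower (48.4%) with miR-27b-3p, with a median of 0.08 beside 0.10 with let-7d-5p and 0.02 with miR-151a-5p. TP53INP1, a p53-induced nuclear protein, was at 8.95 with miR-27b-3p, against 7.97, 7.53 and 7.51 with let-7d-5p, miR-151a-5p and the control. AEN, a nuclease induced by p53, was at 10.62 with miR-27b-3p, against 11.06, 11.43 and 11.38 with let-7d-5p, miR-151a-5p and the control. The list thus held genes with differences of opposite sign, 1.44 and -0.76 from the control.

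The lipid nuclear receptors, left out of the target list, were looked at beside it. Of 5 listed, 4 were measured, and their median difference with miR-27b-3p was 0.05, 2 lower (48.4% of all genes) and 2 higher (50.3%). PPARG, the receptor that drives fat storage, was at 11.38 with miR-27b-3p, against 11.99, 11.75 and 11.97 with let-7d-5p, miR-151a-5p and the control (-0.59), and PPARA, its relative of fatty acid oxidation, was 0.41 above the control. Targets of let-7 were a list of the same kind for another mimic. Of 22 measured, 17 had a lower signal with let-7d-5p than with the control (median -0.17, 49.3% of all genes lower). On the miR-27b-3p array 14 were lower (median -0.08, 48.4% of all genes lower). That array was the lowest of the 4 for 6 of the 22 (27.3%, against 25.4% of all genes). At least 1.5-fold lower than the control were 4 with let-7d-5p (3.56% of all genes) and 2 with miR-27b-3p (4.70%). At least 1.5-fold higher were 0 (4.42%) and 2 (5.07%).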

How the data were processed

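The authors deposited 1 log2 signal for each probe set of the Clariom S arrays, to 2 decimals. The submitters' processing notes name RMA, which corrects background, equalises the arrays and summarises probes, in Transcriptome Analysis Console 4.0. The genome build of the array annotation was not given in the sources used here, so no coordinates of the array's genes are printed. RMA would remove any shift that affects an array as a whole. Of 21448 probe sets, 17709 had 1 gene symbol, 0 several and 3739 none; they named 17687 genes, and the probe set with the highest mean was used where a gene had several. All 28 measured members matched a RefSeq gene by identifier. The microRNA sequences and their coordinates are those of RefSeq on GRCh38.p14.

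Differences are log2 on a mimic array minus log2 on its reference, as deposited. A size of 1.5-fold was used for the main counts. The shares at 0.30 or more below the control were read from the cumulative curves, at a size not among those planned. With 1 array per group no test was possible, and precision is limited by the number of arrays. Differences from the control spread with an SD across genes (those above the floor) of 0.33 (miR-27b-3p), 0.30 (let-7d-5p) and 0.32 (miR-151a-5p). The members, the lists around them and the comparisons were chosen with earlier results of these data known. All members are named. Other genes are named where they are relatives of the 6 members 1.5-fold lower or mark a cell type. Also named are the 2 of a list, above the floor, with the largest differences on the miR-27b-3p array. Outside these rules, AFF2 and ADAM8, relatives of AFF4 and ADAM19, were named for being at least 1.5-fold higher. Alternatives were quantile normalization, a floor, a pseudocount of 16, the mean over probe sets, other references and other fold sizes. RNA was extracted with Trizol per the labels and with an RNeasy kit per the study's methods. Python 3.11.15, numpy 2.4.6, pandas 2.3.3 and matplotlib 3.10.9 were used, and the counting steps were tested on simulated data.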

Additional observations from a re-analysis of the deposited data

How the results depend on the processing

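Among the alternatives run, only the fold size changed the counts of members by more than 1.5 times. At a smaller size, 0.32 on the log2 scale, 10 members were lower (14.6% of all genes) and 2 higher (15.9%) with miR-27b-3p than with the control, 12 were lower than the mean of the other mimics (13.5%), 2 were lower with let-7d-5p than with the control (13.4%) and 3 with miR-151a-5p (14.0%). At 2-fold the counts were 0 lower (0.503% of all genes) and 0 higher (0.605%) against the control, 1 lower against the mean of the other mimics (GPAM, 0.718% of all genes) and 0 lower with miR-151a-5p (0.328%). The other 38 alternative values for the counts and the median stayed within that limit. Those with the mean over probe sets are among them and could not change, because each of the 28 measured members had 1 probe set. The floor could change little, as 27 of the 28 were above it on at least 1 array. Of the 6 members 1.5-fold lower than the control, 6 stayed lower with the mean of the other mimics as reference, with quantile normalization and with a pseudocount of 16, and 5, 6 and 5 of them stayed 1.5-fold lower. With the mean of the other mimics as reference, the differences of APC (0.43), EGFR (0.01), FOXO1 (0.41) and TGFBR3 (-0.52) moved furthest, and APC, NOTCH1, RUNX1 and SPRY2 changed sign. Chosen after seeing the data, leaving out the let-7d-5p, the miR-151a-5p or the control array made miR-27b-3p the lowest of 3 for 16, 19 and 18 members, against 32.7%, 32.9% and 32.7% of all genes. A member lowest of 4 arrays stays lowest of 3, so these counts could not fall below 16 and do not test that count. No paired analysis was possible because each group holds 1 array. Values near the floor (SFRP1, EGFR, ADAM19, THRB, FOXO1 and GPAM, whose difference was -0.73 with the pseudocount) are limited by background, and without replicates no difference between cultures can be separated from an effect of a mimic.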

Other observations

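Lists downstream of NOTCH1 and of the growth factor genes were read as well, and they are given as values. Of 6 Notch target genes, 5 were higher (50.3% of all genes) and 1 lower with miR-27b-3p than with the control. Their median was 0.33, beside -0.03 with let-7d-5p and 0.12 with miR-151a-5p. Above the floor on all 4 arrays were 3 of the 6, and 5 on at least 1. The gene below it on every array was among those higher with miR-27b-3p. HES1, a repressor induced by Notch, was at 8.73 with miR-27b-3p, against 9.03, 8.73 and 8.38 with let-7d-5p, miR-151a-5p and the control. DTX1, a ubiquitin ligase of the Notch pathway, was at 6.15 with miR-27b-3p, against 5.21, 5.05 and 5.81 with let-7d-5p, miR-151a-5p and the control, and was under the floor with let-7d-5p and with miR-151a-5p. Of 10 MAPK feedback genes, 1 was at least 1.5-fold lower and 1 at least 1.5-fold higher with miR-27b-3p (4.70% and 5.07% of all genes), with a median of -0.05. SPRED1, an inhibitor of RAS signalling, was at 10.58 with miR-27b-3p, against 10.43, 10.19 and 9.75 with let-7d-5p, miR-151a-5p and the control, so that all mimics were higher. DUSP5, a nuclear phosphatase of ERK, was at 10.66 with miR-27b-3p, against 11.14, 11.50 and 11.38 with let-7d-5p, miR-151a-5p and the control. Among the let-7 targets, CDC25A, a phosphatase of the cell cycle, was at 6.76 with miR-27b-3p, against 7.09, 9.16 and 7.56 with let-7d-5p, miR-151a-5p and the control, and CCND2, cyclin D2, at 6.97, against 6.69, 6.83 and 6.29.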
